A study of Mus musculus with 13 samples.

Results

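The comparison described here sets 4 mammary glands of mice with a conditional knockout of Jak1 against 3 glands of wildtype control mice, all at day 2 of involution, when the gland regresses after suckling ends. These are 7 of the 13 libraries of the series, which also holds 3 control and 3 knockout glands at day 7 of lactation. The libraries were chosen by their column names in the deposited involution table, and the titles and stage labels of the samples name the same groups. RNA was taken from flash-frozen pieces of whole gland and sequenced, and the values are FPKM, that is mapped fragments per length of transcript and per size of the library. Within this stage each library has a mouse number of its own, which is used as its name. The numbers M43767 and M43768 also stand at lactation, and whether they mark the same animals is not known. The controls were M44448, M43768 and M43914 and the knockouts were M43196, M43767, M44176 and M44440, and values are given in this order throughout. The sources used here do not give the driver of the recombinase, the exons removed, or the age and strain of the mice. Of 23951 gene symbols in the table, 12509 reached 1 FPKM in at least 3 libraries and were tested.

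JAK1 is a tyrosine kinase bound to the inner part of cytokine receptors, among them gp130, the shared receptor chain of the interleukin 6 class, and the receptors of interferons and of interleukins such as interleukin 4. A bound cytokine activates the kinase, which phosphorylates STAT transcription factors that then enter the nucleus. In the mammary gland, leukaemia inhibitory factor and oncostatin M activate STAT3 soon after milk removal ceases, and STAT3 is known for its part in the death of the secretory epithelium and in an acute phase programme of secreted proteins. The study concerns the part of JAK1 in signalling by inflammatory cytokines and in the remodelling of the gland.

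The libraries differed in depth and composition as much within groups as between them. Relative to the mean of the table, depth ran from 0.695 to 1.17 in the controls and from 0.485 (M43196) to 1.5 (M44440) in the knockouts. The short RNA entry Mir6236 took 32.7% of all FPKM in control M44448 and 44.0% in knockout M43196, against 3.05% to 10.8% in the other libraries. Pearson coefficients between libraries, across genes, ran from 0.895 to 0.935, and the first principal component (25.2% of the variance) placed knockout M44440 beside controls M43768 and M43914. Some glands held other tissue: the sum of 12 skeletal muscle genes ran from 137 to 1989 FPKM in the controls and from 63.9 to 7314 FPKM (M44176) in the knockouts, and knockout M43767 held the skin genes Krt1, Krt10 and Lor at 38.8, 53.5 and 43.5 FPKM, where no other library passed 3.59 FPKM. Knockout M43196 held the most globin transcript (Hbb-b1 at 1231 FPKM, against 46.5 to 509.9 FPKM in the other libraries) and alone held the neutrophil granule genes Camp and Ngp above 1 FPKM, at 31.5 and 34.5 FPKM. Luminal epithelial genes, the defining genes of the secretory gland, were present in every library. The 14 tested of 15 listed genes summed to 1787 to 2547 FPKM in the controls and 1817 to 2961 FPKM in the knockouts.

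Jak1 itself stood at 24.3, 24.0 and 24.6 FPKM in the controls, against 22.999, 22.2, 26.3 and 17.3 FPKM in the knockout glands. The groups overlapped, since M44176 lay above every control and M44440 was the lowest library (log2 difference -0.12 ± 0.17, adjusted p = 0.989 with limma and Benjamini-Hochberg adjustment). A whole-gene value from whole tissue holds RNA of cells that kept the gene and transcripts missing only some exons, so Jak1 checks no label here. Of the 20 tested genes nearest to Jak1 in the order of the reference annotation, 10 on each side, none separated the groups, and the widest log2 difference among them was 0.47 (Itgb3bp).

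Over all 12509 genes, 9 (0.0719%) passed an adjusted p of 0.05 with limma: 2 were higher (0.016%) and 7 were lower (0.056%) in the knockouts. A further description was used that does not depend on a fitted variance: a gene separates the groups when every knockout library lies above, or below, every control library after rescaling. This held for 852 genes (6.81%), 383 higher (3.06%) and 469 lower (3.75%), and 855 genes (6.84%) had an unadjusted p under 0.05. With 3 against 4 libraries, genes without any difference would separate at a share not far below 6.81%. Some would also have an unadjusted p under 0.05. Neither number is therefore a count of changed genes. The split between higher and lower depended on the scaling, with 45% of the separating genes higher here, 31.8% after quantile normalization and 57.4% after scaling to the total outside milk proteins and short RNA. Most separating genes differed little: the median log2 difference was 0.51 among the higher and -0.46 among the lower, and 52 and 58 of them lay beyond 1 and -1. Among separating genes above 0 in every library, 2 higher and 8 lower ones left a gap of at least 1 on the log2(rescaled FPKM + 1) scale between the nearest libraries of the groups. Control M44448 was the control nearest to the knockouts in 43.0% of the separating genes, and no knockout library was nearest to the controls in more than 28.9% of them (M43767).

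**Figure D1:**
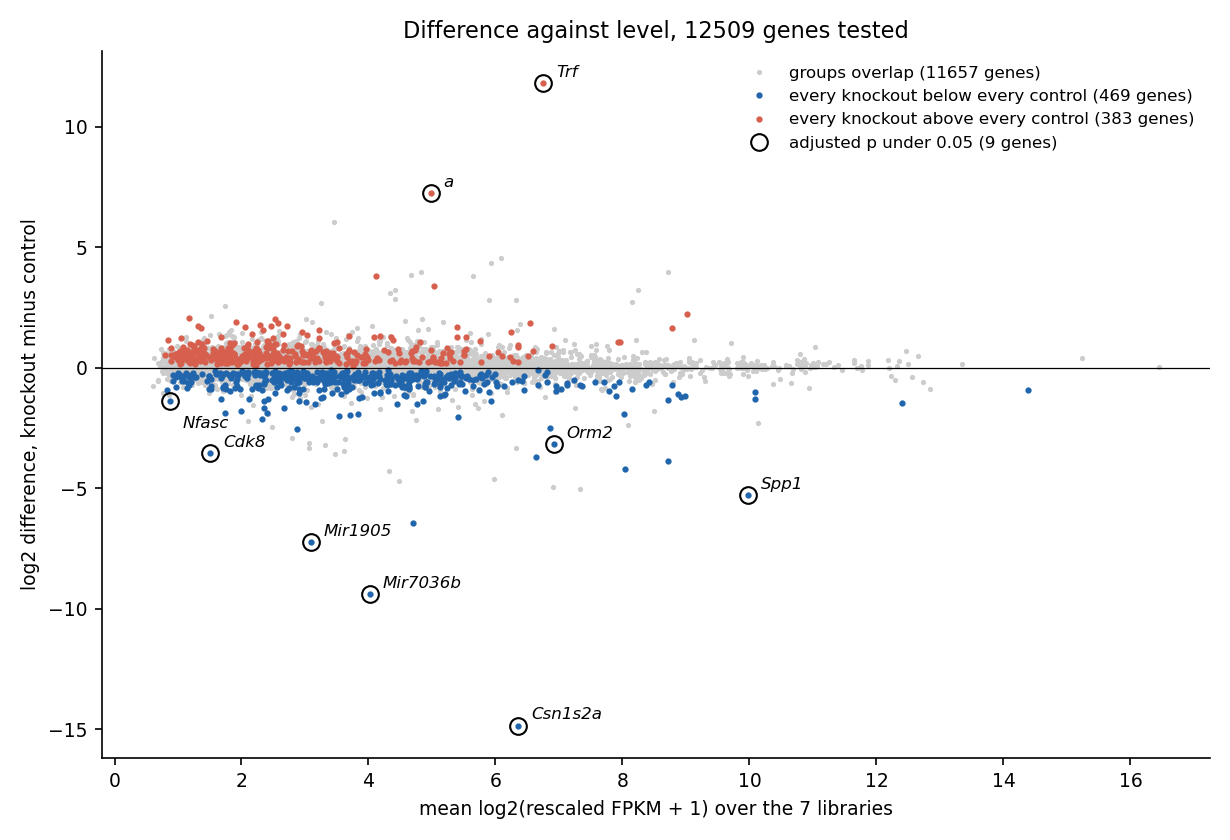
Log2 difference (knockout minus control, y axis) against the mean of log2(rescaled FPKM + 1) over the 7 libraries (x axis), 1 point per tested gene. Blue points are the 469 genes with every knockout below every control, red points the 383 genes with every knockout above, grey points the genes whose groups overlap, and the 9 circled genes passed the adjusted threshold of 0.05.

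Among the 9 genes, 4 were measured in both groups, and Spp1 was the most abundant of them. Spp1 encodes osteopontin, a secreted phosphoprotein of milk and bone matrix that binds integrins. It stood at 10751, 4866 and 11070.4 FPKM in the controls, against 582, 98.1, 231 and 140.5 FPKM in the knockout glands, so that the highest knockout (M43196) was more than 8-fold below the lowest control (M43768). Spp1 fell by 5.29 ± 0.61 on the log2 scale (± SE, n = 3 and 4, adjusted p = 0.0363 with limma). In whole tissue, fewer cells of a type and less RNA per cell cannot be told apart, here and for the genes below. In the separate lactation table the knockouts lay above the controls instead, at 2386, 824 and 1136 FPKM against 650.5, 454 and 539 FPKM.

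Orm2 encodes an orosomucoid, an acute phase glycoprotein that carries small molecules in plasma. Its FPKM were 276, 379 and 754 in the controls and 47.1, 36.4, 60.9 and 43.1 in the knockouts, which lay close together and well below the controls. Orm2 fell by 3.17 ± 0.34 on the log2 scale (adjusted p = 0.0245 with limma), and the similar copy Orm1, with which it may share reads, stood at 367, 424 and 1133 FPKM in the controls, against 125, 134, 219 and 123 FPKM in the knockout glands. Nfasc encodes neurofascin, an adhesion molecule of axons and glia. Its low level of 2.52, 2.07 and 1.97 FPKM in the controls was 0.468, 0.156, 0.176 and 0.146 FPKM in the knockouts, with M43196 above the other knockouts, and it fell by 1.36 ± 0.17 on the log2 scale (adjusted p = 0.049999 with limma). Log2 differences were formed on log2(rescaled FPKM + 1) and understate the change of genes as low as Nfasc. The calls of these 3 genes were lost in most fits with 1 library fewer, while the differences stayed near their size (log2 difference over all alternatives -5.79 to -4.94 for Spp1 and -3.48 to -2.77 for Orm2). Leaving out 1 library at a time, Spp1 passed only without M43196 (adjusted p 0.0757 to 0.189 without each other library) and Orm2 only without M43914 or M44176 (0.0553 to 0.182 without each other library). Nfasc lost its call without each of the 4 knockouts (0.0568 to 0.138), and no fit that left out 1 of the 3 controls tested it, since it then missed the expression filter. Over all 18 alternative settings the adjusted p ran from 0.00477 to 0.189 for Spp1 and from 0.00179 to 0.206 for Orm2.

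The agouti gene a encodes a secreted antagonist of melanocortin receptors that sets coat colour. It stood at 0.521, 0.878 and 1.05 FPKM in the controls, against 301, 439, 194 and 212 FPKM in the knockout glands (log2 fold change 7.26 ± 0.29, adjusted p = 1.62e-05 with limma). No other gene measured in every library had a wider gap, and a passed in all 17 alternative settings that tested it. At lactation its level did not follow the labels, with 652 FPKM in control M42186, 1.54 and 1.33 FPKM in controls M43768 and M44175 and 186 to 321 FPKM in the knockouts. Of the 20 tested genes around a in the annotation order, 1 separated the groups, Cbfa2t2 (log2 difference -0.25), and the nearest genes Raly, Eif2s2, Ahcy and Itch differed by 0.07, 0.04, 0.07 and -0.22.

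Each of the other 5 called genes had a listed value of 0 throughout 1 group. Trf, which encodes transferrin, the iron carrier of plasma and milk, had 0 in each of the 3 controls, against 3779, 2475, 7718 and 2293 FPKM in the knockout glands, although the lactation table lists it between 6952 and 20572 FPKM in all 6 libraries. The casein Csn1s2a was at 0 in each of the 4 knockouts and at 30709.5, 20351 and 41984 FPKM in the controls, while all 6 lactation libraries list it at 0, when caseins are abundant. The Mediator kinase Cdk8 was at 0 in the knockouts and at 9.06, 11.6 and 11.45 FPKM in the controls. The microRNA entries Mir7036b and Mir1905 were at 0 in the knockouts and at 547, 922 and 628 and 189.8, 160.04 and 109 FPKM in the controls. An exact 0 in these tables can be a missing estimate, so no fold is given for these genes, and without the 7 genes listed at 0 in a whole group a alone passed.

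**Figure D2:**
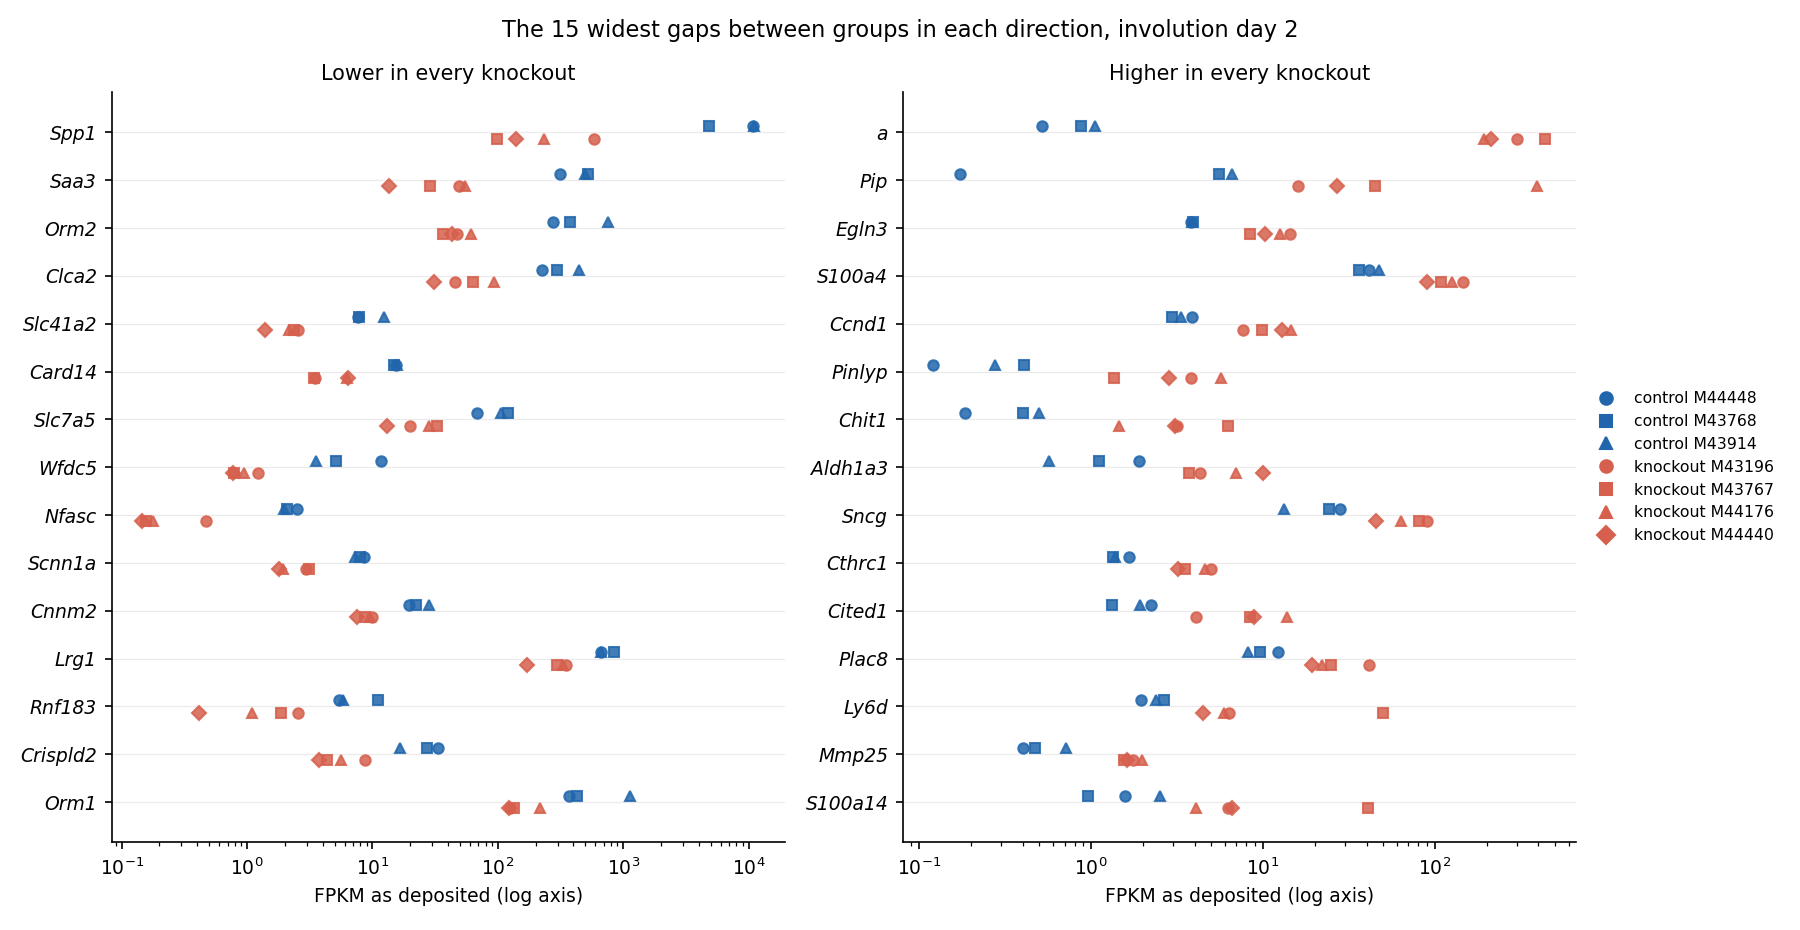
Deposited FPKM (log axis) of the 15 genes per direction with the widest gap between the groups, among named genes above 0 in all 7 libraries. Each marker is 1 library, blue for the 3 controls and red for the 4 knockouts; in the left panel every knockout lies left of every control, and in the right panel every knockout lies right of every control.

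Looking beyond pathway lists, the widest gaps below the controls joined acute phase genes with genes of ion and amino acid transport. Card14, a scaffold protein that activates NF-kB in epithelia, stood at 15.5, 14.7 and 15.8 FPKM in the controls, against 3.51, 3.43, 6.22 and 6.39 FPKM in the knockout glands. The controls of Card14 lay close together and far above the highest knockout (log2 difference -1.49 ± 0.22, adjusted p = 0.0898). Slc41a2 and Cnnm2, both membrane proteins of magnesium transport, stood at 7.62, 7.78 and 12.4 against 2.57, 2.39, 2.16 and 1.40 FPKM and at 19.5, 22.1 and 28.4 against 9.93, 8.70, 9.59 and 7.496 FPKM (log2 differences -1.68 ± 0.21 and -1.26 ± 0.17, adjusted p = 0.0529 and 0.0636). Both genes lay lower without overlap, just short of the threshold. Crispld2, a secreted protein that binds lipopolysaccharide, stood at 33.5, 27.0 and 16.6 FPKM in the controls, against 8.67, 4.31, 5.65 and 3.74 FPKM in the knockout glands (log2 difference -1.998 ± 0.31, adjusted p = 0.114). The ubiquitin ligase Rnf183 was at 5.45, 11.2 and 5.77 against 2.56, 1.86, 1.09 and 0.413 FPKM, and Wfdc5, a small secreted protein with a protease inhibitor fold, at 11.8, 5.10 and 3.58 against 1.23, 0.790, 0.940 and 0.771 FPKM. Efna5, a membrane-bound ephrin ligand, varied little within groups: 5.46, 5.73 and 5.81 FPKM in the controls, against 3.02, 2.83, 2.30 and 2.76 FPKM in the knockout glands (log2 difference -0.82 ± 0.13, adjusted p = 0.114).

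Channels and carriers of the epithelial membrane stood among these genes. Of 21 tested genes of chloride, sodium and water transport, 4 separated the groups, all lower (19.0%, against 3.75% lower and 6.81% in either direction over all genes tested). The median log2 difference was -0.18 for the list and 0.0095 for all genes. Clca2 and Clca1, which encode calcium-activated chloride channel regulators, stood at 225, 299 and 445 against 45.8, 63.8, 93.3 and 30.8 FPKM and at 29.8, 73.0 and 26.3 against 11.1, 21.0, 7.21 and 16.2 FPKM. Scnn1a, the alpha subunit of the epithelial sodium channel, stood at 8.50, 7.90 and 7.24 against 2.93, 3.10, 1.95 and 1.79 FPKM (log2 difference -1.36 ± 0.18, adjusted p = 0.0636), and the beta subunit Scnn1b separated by less, at 15.5, 16.8 and 16.7 against 13.6, 8.01, 13.98 and 14.01 FPKM. Of 19 tested amino acid carriers, 4 separated, all lower (21.1%, against the same shares), although the median of the list was 0.0049. Slc7a5 and Slc3a2, the light and heavy chain of the large neutral amino acid exchanger, were at 68.7, 121 and 106 against 19.8, 32.5, 28.2 and 13.01 FPKM and at 261, 426 and 288 against 219, 136, 243 and 158 FPKM. Slc7a5 had the larger log2 difference of the pair, -2.04 ± 0.33 (adjusted p = 0.134) against -0.76 ± 0.27 (adjusted p = 0.626). Slc39a14, a zinc and iron importer, and Mt2, a metal-binding metallothionein, both separated lower, at 51.7, 39.0 and 43.9 against 19.2, 27.4, 20.5 and 23.1 FPKM and at 611, 891 and 685 against 279.8, 351, 274 and 478 FPKM. They were the separating members among 24 tested genes of calcium, zinc and metal transport, a share of 8.33% that is near the 6.81% of all genes.

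The receptors and transducers of JAK1 signals divided by member, and the counts here stand beside the 6.81% of all genes that separated. Stat3 was the only separating gene among 10 tested Janus kinases and STAT factors, at 113, 90.2 and 87.7 FPKM in the controls, against 59.5, 59.9, 62.7 and 69.3 FPKM in the knockout glands (log2 difference -0.59 ± 0.17, adjusted p = 0.48). Of 11 tested cytokines and receptors of the interleukin 6 class, Osmr, the oncostatin M receptor chain, was lower in every knockout at 27.0, 31.6 and 26.0 against 13.8, 18.3, 10.02 and 14.3 FPKM. In contrast, Il11ra1, the interleukin 11 receptor chain, was higher in every knockout, at 20.7, 17.7 and 17.9 against 35.6, 24.2, 29.0 and 35.7 FPKM. The shared chain Il6st (30.8, 22.6 and 21.3 against 24.8, 28.4, 29.9 and 20.9 FPKM) and the leukaemia inhibitory factor receptor Lifr (11.9, 10.03 and 7.81 against 8.44, 11.6, 9.67 and 9.85 FPKM) overlapped, with log2 differences of 0.09 ± 0.20 and 0.03 ± 0.18 whose signs turned without M43914. Among 14 tested receptors of other classes that use JAK1, Il4ra, Il13ra1 and Il21r separated, all lower. Il4ra and Il13ra1 are the 2 chains of the interleukin 13 receptor, and stood at 18.0, 22.2 and 26.3 against 13.8, 15.8, 13.04 and 12.1 FPKM and at 6.04, 6.21 and 6.43 against 3.39, 5.09, 4.49 and 2.52 FPKM. Among 17 tested feedback inhibitors, Socs3, which blocks gp130 receptors, was at 19.0, 23.4 and 28.0 against 8.40, 11.3, 8.45 and 9.71 FPKM (log2 difference -1.19 ± 0.17, adjusted p = 0.0898), and Ptpn2, a phosphatase of JAK1 and STAT3, at 19.4, 25.3 and 35.6 against 15.1, 12.7, 10.3 and 11.9 FPKM. Both separated lower, as did Socs5, whose difference was small (log2 -0.17 ± 0.12).

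**Figure D3:**
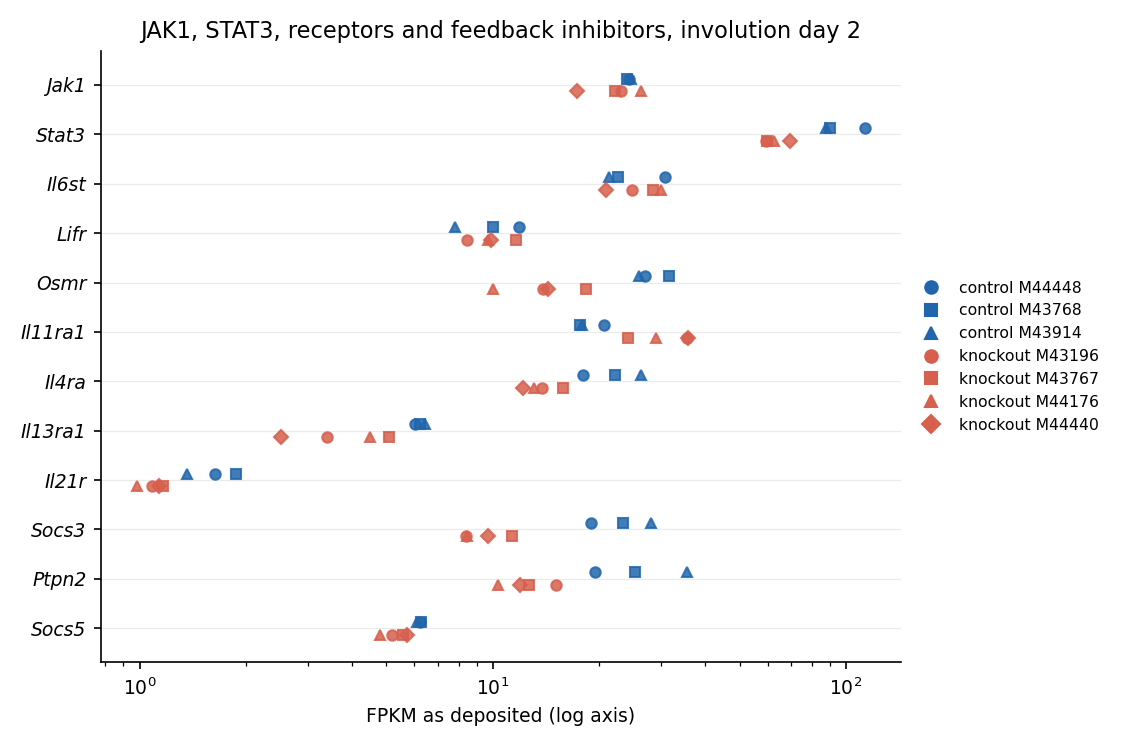
Deposited FPKM (log axis) of JAK1, STAT3, receptors and feedback inhibitors, 1 marker per library (blue 3 controls, red 4 knockouts). Jak1, Il6st and Lifr overlap between the groups, Il11ra1 lies higher in every knockout, and the other 8 genes lie lower in every knockout.

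Acute phase proteins held the largest share of separating genes of any pathway list with at least 10 members tested. Of 28 listed genes 18 were tested, and 9 of these lay lower and 1 higher in every knockout (55.6%, against 6.81% of all genes tested), with a median log2 difference of -0.69, which was -0.07 when genes below the expression filter were included. The serum amyloid genes Saa3, Saa1 and Saa2, similar copies between which reads may be split, had knockout ranges of 13.6 to 54.3, 24.5 to 404 and 13.8 to 246 FPKM against control ranges of 313 to 525, 609 to 4661 and 381 to 3796 FPKM. Lrg1, a leucine-rich plasma glycoprotein, Lcn2, a siderophore-binding lipocalin, and the lipopolysaccharide-binding proteins Cd14 and Lbp completed the lower members together with Orm1 and Orm2. Lbp lay near the border, with a lowest control of 310 FPKM and a highest knockout of 295 FPKM as deposited. Haptoglobin, the haemoglobin-binding plasma protein of Hp, went the other way, at 247, 318 and 155 FPKM in the controls, against 640.3, 1113, 1110.3 and 321 FPKM in the knockout glands (log2 difference 1.65 ± 0.48, adjusted p = 0.511). Adipocyte genes were also higher on average (15 of 15 with a positive difference, none separating, summed levels of 4840 to 9299 FPKM in control and 5150 to 18030 FPKM in knockout glands), and their part in Hp was not tested. Further along the response to lipopolysaccharide, Irak4 and Irak1, kinases behind Toll-like receptors, also lay lower in every knockout, but by little. Their log2 differences were -0.36 ± 0.16 and -0.18 ± 0.14 (adjusted p = 0.743 and 0.947 with limma). Irak1 lay at the border, with a gap of 0.0027 on the log2 scale. With these genes, 4 of 17 tested genes of this list separated, all lower (23.5%, against 3.75% lower over all genes). Cd14 and Lbp, already counted above, are the other 2 of the 4.

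A group that the acute phase lists do not cover, the chaperones and folding enzymes of the endoplasmic reticulum (ER), lay lower in the knockouts with few exceptions. Secreted proteins fold in this compartment, and its chaperones are induced through the transcription factors ATF6 and XBP1 when the load of unfolded protein grows. All 28 listed genes were tested, 25 had a negative log2 difference, and 13 (46.4%, against 6.81% of all genes tested) separated the groups, each lower in the knockouts. None passed the adjusted threshold with limma, and the median log2 difference was -0.41, against 0.0095 over all genes. The median ran from -0.48 to -0.38 over the 18 alternative settings, and the number that separated from 8, after scaling to the total outside milk proteins and short RNA, to 17, without knockout M44176.

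Hspa5, the central chaperone BiP of the compartment, stood at 247, 373 and 338 FPKM in the controls, against 194, 237, 222 and 167 FPKM in the knockout glands, all below the lowest control (log2 difference -0.60 ± 0.22, adjusted p = 0.637). Hyou1, a helper of BiP that exchanges its nucleotide, had the smallest p of the list, at 18.1, 13.6 and 16.1 against 7.29, 9.96, 11.4 and 6.58 FPKM (log2 difference -0.78 ± 0.21, adjusted p = 0.473). Creld2 and Manf, secreted products of the same stress response, stood at 40.8, 42.5 and 39.1 against 26.4, 32.2, 25.2 and 23.6 FPKM and at 67.4, 106 and 92.1 against 58.7, 53.6, 54.0 and 39.98 FPKM. For Creld2 the controls were nearly equal, and M43767 was the knockout nearest to them. Pdia6 and Pdia4, isomerases of disulphide bonds, were at 139, 143 and 239 against 101, 99.7, 107 and 81.5 FPKM and at 46.3, 58.5 and 59.5 against 35.2, 39.5, 40.2 and 28.5 FPKM. The calcium-binding chaperones Calr and Hsp90b1 were at 357, 391 and 615 against 296, 267, 309 and 201 FPKM and at 191, 230.2 and 317 against 162, 158, 177 and 139 FPKM, with M44440 the lowest library in each. Xbp1, which encodes a transcription factor of this response, was at 570.2, 683 and 517 against 409, 367, 398 and 254 FPKM (log2 difference -0.71 ± 0.24, adjusted p = 0.597). Sel1l and Edem1, which hand misfolded proteins to degradation, Sdf2l1 and Dnajb11 completed the separating members, with Edem1 at the border (lowest control 12.8 FPKM, highest knockout 12.9 FPKM as deposited, apart only after rescaling).

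Some genes known from the other stress branch, which runs through the translation factor eIF2 and the transcription factor ATF4, overlapped between the groups. Ddit3, which encodes the death-related factor CHOP, stood at 30.4, 43.2 and 22.0 against 41.4, 42.8, 22.4 and 39.1 FPKM, and Trib3, a pseudokinase that CHOP induces, at 12.8, 14.7 and 13.7 against 19.1, 13.05, 9.75 and 21.3 FPKM. Their log2 differences were 0.22 ± 0.30 and 0.16 ± 0.25, those of Atf4 and Asns -0.22 ± 0.20 and -0.13 ± 0.27, and each of these 4 genes, chosen after their values were seen, did so. No list of that branch was tested, and Slc7a5 and Slc3a2, which ATF4 is also known to induce, separated lower as given above. Plasma cells also secrete much protein, and they share 1 list of markers here with B cells. These markers summed to 130 to 338 FPKM in control and 91.9 to 259.5 FPKM in knockout glands, so the sums overlapped. Of 8 tested markers 6 had a negative difference, the median was -0.25, and 1 (Sdc1) separated, lower. Mzb1 was at 7.69, 7.32 and 14.4 against 16.8, 7.28, 5.95 and 5.57 FPKM. The part of plasma cells in the ER genes was not tested. Luminal epithelial genes had a median log2 difference of -0.03, and 1 of 14 tested (Prlr) separated. Milk protein genes lay mostly lower, with 15 of 20 tested negative and a median of -0.35 (-0.50 to -0.14 over the alternative settings). Trf separated higher and Csn1s2a and Lpo lower (15%, against 6.81% of all genes tested). Trf and Csn1s2a are listed at 0 in a whole group. The part of milk protein genes in the ER genes was not tested.

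**Figure D4:**
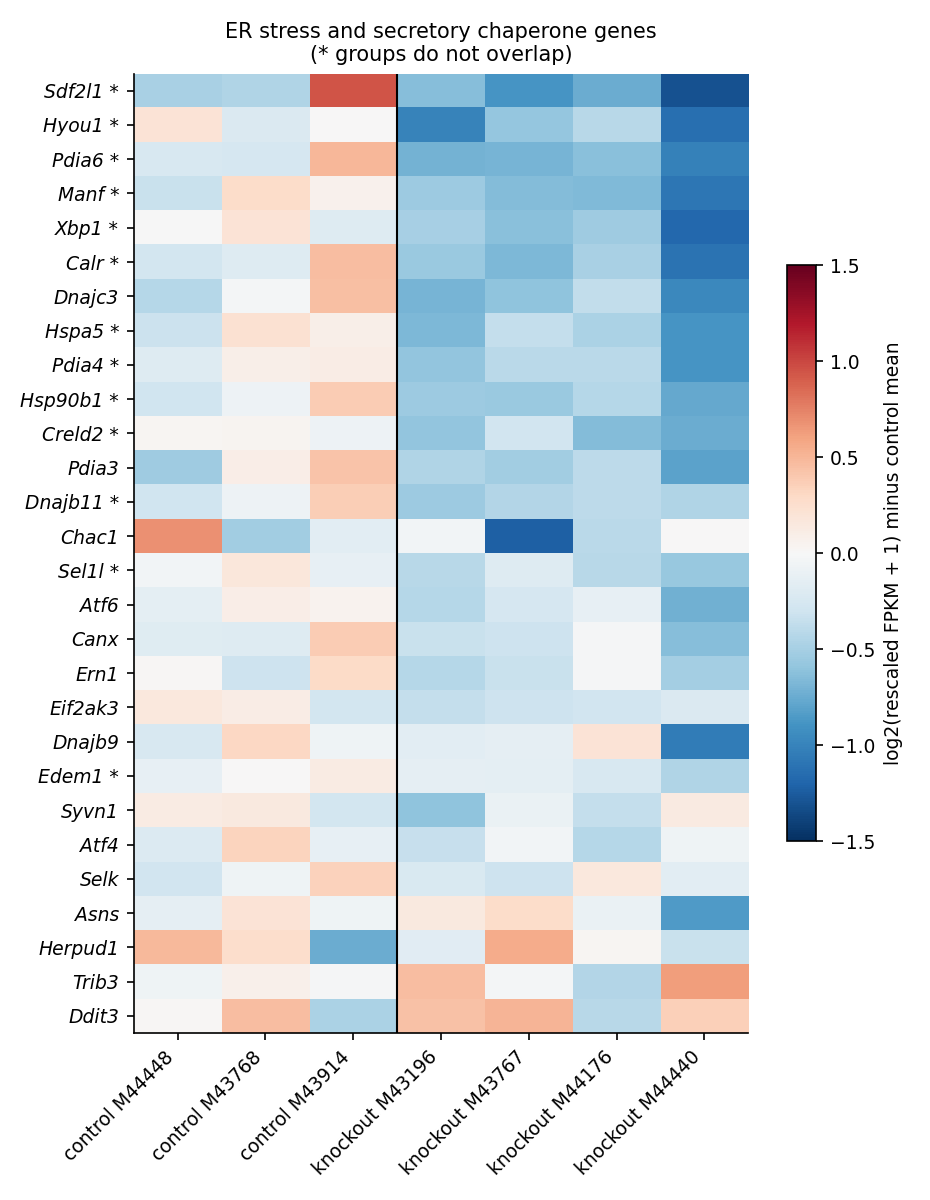
Levels of the 28 ER stress and secretory chaperone genes in each library, as log2(rescaled FPKM + 1) minus the mean of the 3 controls (colour scale from -1.5 to 1.5, blue lower, red higher), with controls left of the line. The 13 genes marked with a star do not overlap between the groups, and knockout M44440 is the lowest library for most of them, while Ddit3, Trib3 and Herpud1 at the bottom have a positive mean difference.

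Because these genes lay lower together, their promoters were searched for a shared sequence. The ER stress response element, CCAAT and CCACG parted by 9 bases of any kind, on either strand, is the known binding sequence of ATF6 and XBP1 together with NF-Y. In RefSeq promoter windows of 300 bases (250 before and 50 after the transcript start, mouse build GRCm38.p6, with several windows for a gene with several starts), it stood in 37 of 27025 promoters (0.137%) and in 16 of the 9316 tested genes with a promoter in that table (0.172%). It stood in 6 of 357 promoters of genes lower in every knockout (1.68%) and in none of 273 promoters of genes higher in every knockout. Of these 6 genes, 5 belong to the ER list whose lower levels prompted the search. Of the ER list, 24 genes had a promoter and 8 of them held the element, 5 of these among the separating genes. These 5 are shown to let the match be read in its surroundings, 5′ to 3′ on the strand of the gene, with the element in capitals (Hsp90b1 holds 2).
Hspa5 (chr2:34771985-34772083, plus strand): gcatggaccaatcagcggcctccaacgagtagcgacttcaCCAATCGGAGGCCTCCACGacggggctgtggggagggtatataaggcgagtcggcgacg
Hsp90b1 (chr10:86705493-86705694, minus strand): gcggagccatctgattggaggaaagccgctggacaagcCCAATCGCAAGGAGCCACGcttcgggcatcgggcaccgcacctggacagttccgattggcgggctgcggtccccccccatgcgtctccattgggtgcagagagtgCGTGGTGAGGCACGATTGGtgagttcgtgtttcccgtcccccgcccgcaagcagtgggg
Calr (chr8:84847035-84847133, minus strand): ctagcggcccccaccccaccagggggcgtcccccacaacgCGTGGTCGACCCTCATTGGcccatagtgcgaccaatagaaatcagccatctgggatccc
Creld2 (chr15:88819480-88819578, plus strand): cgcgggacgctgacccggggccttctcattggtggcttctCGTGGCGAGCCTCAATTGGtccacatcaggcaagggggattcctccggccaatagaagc
Pdia6 (chr12:17266451-17266549, plus strand): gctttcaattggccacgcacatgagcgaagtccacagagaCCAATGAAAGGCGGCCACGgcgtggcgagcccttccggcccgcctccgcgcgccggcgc
The other 11 tested genes that hold the element included Derl3, a channel protein for misfolded proteins, which also lay lower in every knockout (11.2, 10.7 and 14.2 against 4.07, 6.98, 2.31 and 3.50 FPKM, log2 difference -1.36 ± 0.28, adjusted p = 0.274). Of the 16 genes, 8 belong to the ER list, and outside that list only Derl3 separated. Over all 16 genes, 11 had a negative difference and the median was -0.28, and these values are not independent of the list. The element was searched after the levels had been seen, a match is no evidence of binding, and the tables were made on another build, so that these coordinates belong to the promoter table alone.

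The STAT motif TTCNNNGAA, the known core of STAT binding sites, reads the same on both strands. It stood in 9.55% of all promoters, in 8.39% of promoters of tested genes, in 7.84% of those of genes lower in every knockout and in 8.06% of those of genes higher in every knockout. It was 1 of 6 motifs searched. TTC and GAA parted by 4 bases, the other STAT spacing, stood in 6.48% of promoters of tested genes, 5.04% of the lower and 10.6% of the higher set. The AP-1 motif TGANTCA stood in 6.42%, 8.68% and 9.52%, the C/EBP motif TTGCNNAA in 10.3%, 13.7% and 12.1%, and the NF-kB motif (GGGA and CC parted by 4 bases) in 30.5%, 35.3% and 31.5% of the same sets, in the same order. None of these shares was tested. Among the separating genes named here that hold it are Socs3 and Prlr, which encodes the prolactin receptor and stood at 7.45, 9.61 and 8.45 against 5.70, 5.80, 6.61 and 5.68 FPKM. They are shown with the motif in capitals, on the same terms as above.
Socs3 (chr11:117969472-117969560, minus strand): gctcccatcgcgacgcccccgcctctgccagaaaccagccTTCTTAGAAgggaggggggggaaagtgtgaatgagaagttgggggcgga
Prlr (chr15:10223756-10223844, plus strand): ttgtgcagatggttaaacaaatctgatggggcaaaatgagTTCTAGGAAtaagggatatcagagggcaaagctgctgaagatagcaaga

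Genes higher in every knockout were led, after a, by Pip, a secreted prolactin-inducible glycoprotein, whose knockout values of 15.9, 44.8, 390.1 and 27.0 FPKM spread widely above 0.173, 5.54 and 6.56 FPKM in the controls (log2 difference 3.83 ± 1.096, adjusted p = 0.492). Egln3, a prolyl hydroxylase that marks hypoxia-inducible factors for degradation, was tighter, at 3.83, 3.90 and 3.84 against 14.3, 8.39, 12.5 and 10.2 FPKM (log2 difference 1.34 ± 0.18, adjusted p = 0.0636). The cyclin gene Ccnd1, needed for entry into the cell cycle, stood at 3.84, 2.95 and 3.31 against 7.60, 9.91, 14.5 and 12.9 FPKM, and Cited1, a transcriptional coregulator, at 2.23, 1.32 and 1.92 against 4.04, 8.42, 13.7 and 8.82 FPKM. Aldh1a3, which makes retinoic acid, and Cthrc1, a secreted collagen repeat protein, were at 1.91, 1.11 and 0.571 against 4.32, 3.72, 6.94 and 10.01 FPKM and at 1.65, 1.34 and 1.37 against 4.95, 3.49, 4.61 and 3.20 FPKM. None of these 6 genes passed the adjusted threshold. Ly6d and S100a14, both epithelial surface or calcium-binding proteins, had the highest value in M43767, at 50.1 and 40.9 FPKM, the library that also held Krt1, Lor and Krt10. The other 3 knockouts of Ly6d, at 4.48 to 6.30 FPKM, still lay above the controls at 1.96 to 2.64 FPKM, and those of S100a14, at 4.06 to 6.58 FPKM, above 0.962 to 2.504 FPKM. The part of skin in these genes was not tested further.

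Cell cycle and DNA replication genes lay higher on average in the knockouts, at low levels. All 32 tested of 38 listed genes had a positive log2 difference (51.8% of all genes tested did), 8 separated the groups, all higher (25.0%, against 3.06% higher and 6.81% in either direction over all genes), and the median was 0.50. None passed the adjusted threshold with limma. Mcm5, part of the replicative helicase, was at 1.52, 1.36 and 1.86 against 3.48, 2.31, 2.96 and 3.22 FPKM, and Ccna2, cyclin A2, at 2.78, 4.07 and 4.00 against 8.18, 4.22, 4.35 and 6.69 FPKM. Tpx2 and Kif20a lay apart only after rescaling. As deposited, their lowest knockouts were at 1.086 and 0.870 FPKM and their highest controls at 1.087 and 0.884 FPKM. M43196, the library with the most globin and neutrophil granule transcript, was the highest for Cdca3, Aurka and Cdc20, and without it the median was 0.38 and again 8 genes separated. Without both M43196 and control M44448 the median was 0.26. The number separating ranged from 3, when 1 FPKM was required in every library, to 20, without control M43914.

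Matrix and stroma genes were also higher on average. Of 11 tested fibroblast markers 10 were positive with a median of 0.87, and Thy1, a surface protein of stromal cells, and Mfap5, a microfibril protein, separated at 18.6, 7.76 and 10.6 against 35.4, 19.2, 42.8 and 22.9 FPKM and at 22.8, 13.1 and 17.8 against 60.8, 26.5, 44.6 and 27.0 FPKM. These 2 genes are 18.2% of the tested markers, against 6.81% of all genes tested. The median of the fibroblast list ran from 0.58 without control M43768 to 1.22 without control M44448. Of 25 tested collagens 22 were positive (median 0.52) and none separated, since the controls and knockouts of genes such as Col3a1 (119, 53.9 and 99.0 against 288, 139, 277 and 119 FPKM) met in M44448 and M44440. Of 38 tested proteoglycans and matricellular proteins, Mfap5, Postn, Fbln2 and Mfap4 separated higher and Spp1, Gpc4 and Sdc1 lower (18.4%, against 6.81% of all genes tested). The number separating in this list ran from 7 to 20 over the alternative settings. Among 16 tested genes of plasminogen activation and coagulation, 4 separated, all higher (25.0%, against 3.06% higher and 6.81% in either direction over all genes tested), among them the protease inhibitors Serpine2 and Tfpi2 and the plasminogen receptor component Anxa2 (85.5, 57.5 and 114 against 177, 135, 184 and 129 FPKM). Tfpi2 lay at the border, with a lowest knockout of 0.979 FPKM and a highest control of 0.974 FPKM as deposited. Among 20 tested metalloproteinases and inhibitors, Mmp25, Mmp23 and Mmp3 were higher in every knockout and Timp4, an inhibitor, lower, at 11.1, 9.19 and 11.01 against 4.56, 4.48, 6.32 and 3.02 FPKM (20.0% of the list in all). Summed fibroblast markers overlapped between the groups (236 to 534 FPKM in control and 387 to 1008 FPKM in knockout glands), none was at 0, and their part in these genes was not tested.

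Genes of cell death separated the groups in both directions. Of 32 tested BCL2 family members and caspases, Bmf, Birc3 and Bcl2l11 separated lower and Bcl2l14 higher (12.5%, against 6.81% of all genes tested). Bmf and Bcl2l11 (Bim), which promote apoptosis by binding protective BCL2 proteins, stood at 36.4, 38.0 and 28.8 against 20.7, 14.2, 17.1 and 21.7 FPKM and at 7.09, 8.22 and 8.60 against 5.73, 6.47, 4.35 and 6.68 FPKM. The death receptor Tnfrsf21 was also lower in every knockout, at 31.2, 34.0 and 34.1 against 24.1, 17.7, 19.0 and 15.1 FPKM, whereas Ripk3, a kinase of necroptosis, was higher, at 2.95, 1.87 and 2.39 against 4.52, 3.50, 3.43 and 3.84 FPKM. Of 33 tested lysosomal genes 26 had a negative difference, with a median of -0.17, and Lipa, the lysosomal acid lipase, and Atp6v1a, a subunit of the proton pump, were among the 3 that separated lower, a share of 9.09% that is near that of all genes. Igfbp5, a binding protein of insulin-like growth factors known to rise in involution, lay lower in every knockout, at 929, 901 and 658 against 509, 385, 265 and 307 FPKM. None of these genes passed the adjusted threshold with limma.

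**Figure D5:**
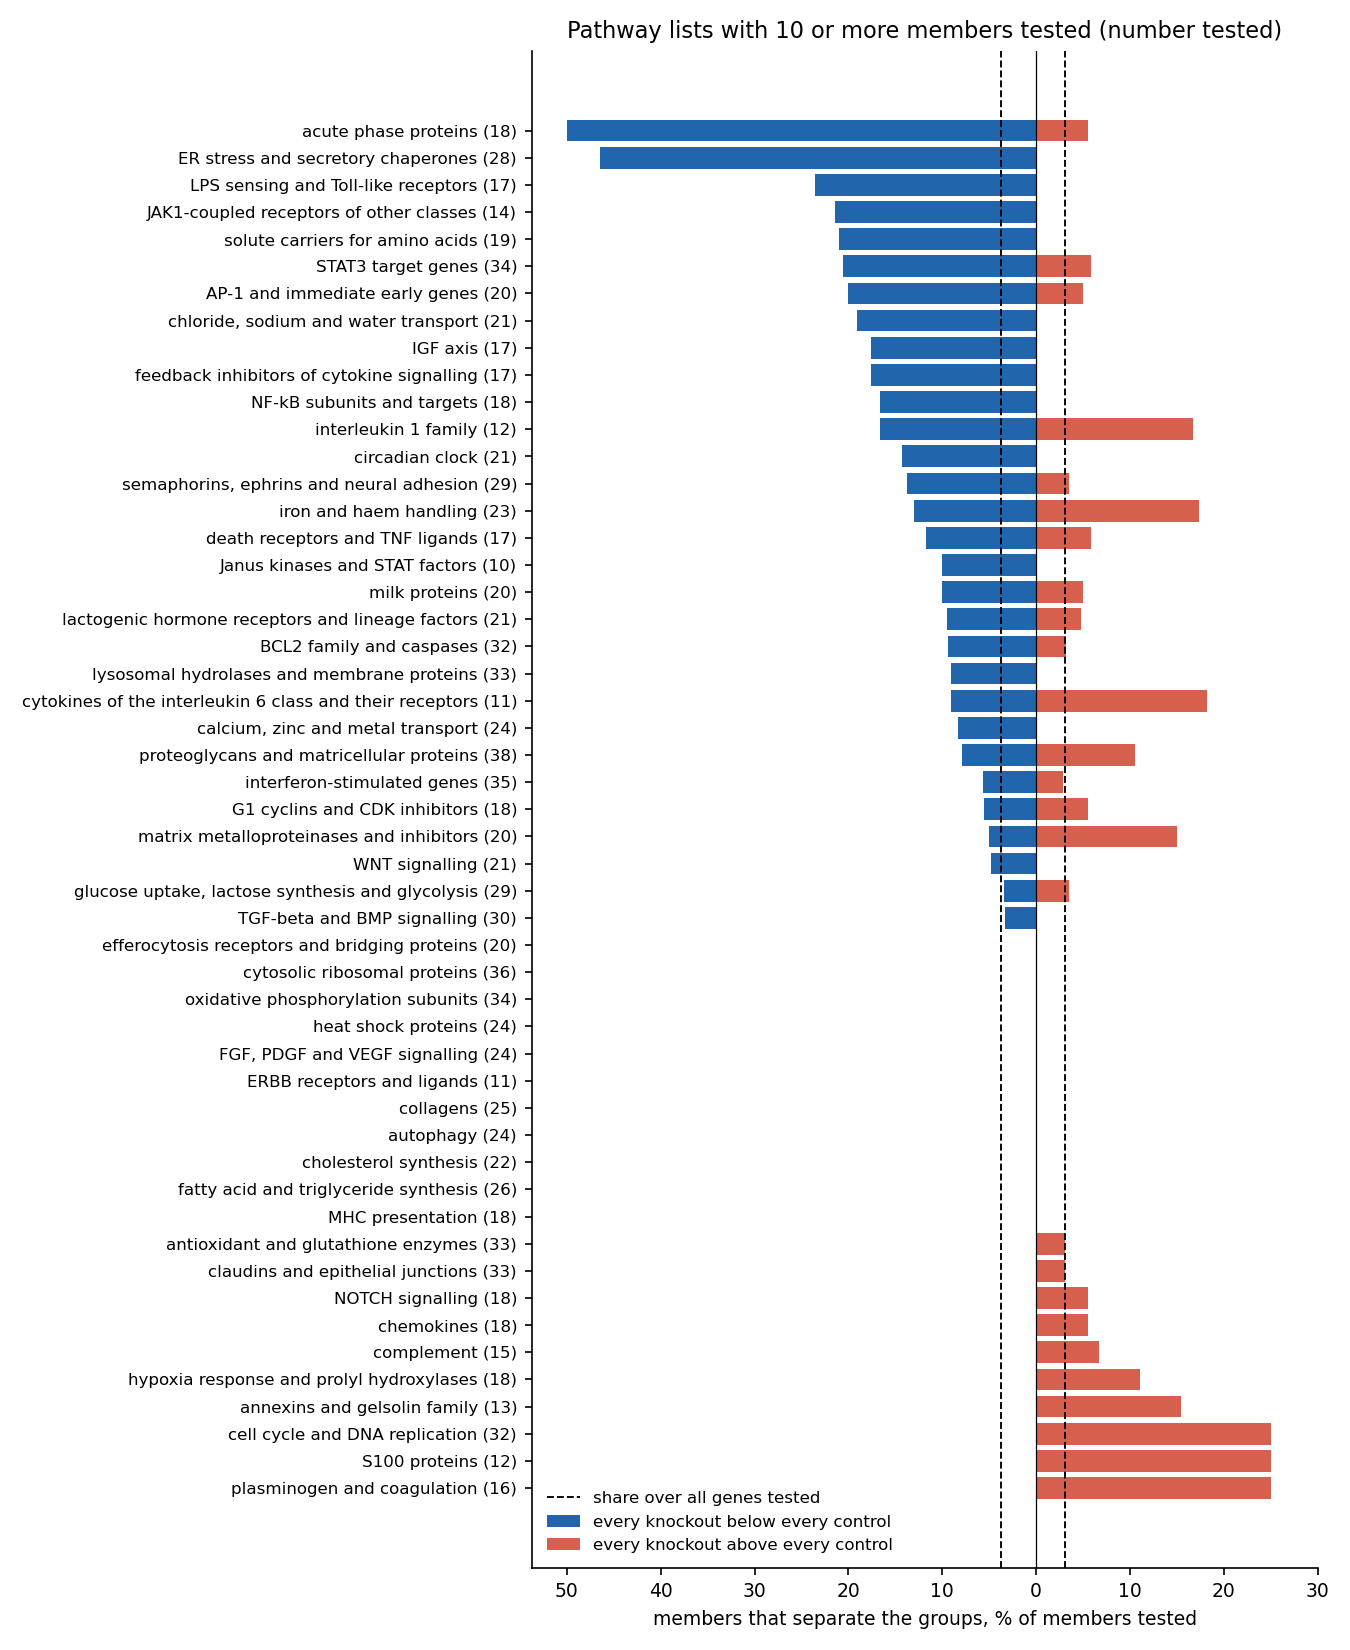
Share of tested members that separate the groups (x axis, %), for each pathway list with at least 10 tested members (their number in brackets), lower in every knockout to the left in blue and higher to the right in red. Dashed lines give the shares over all genes tested (3.75% lower, 3.06% higher); acute phase proteins and ER chaperones reach furthest to the left, and cell cycle, S100 and plasminogen genes furthest to the right.

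Other lists held no separating gene. This was so for 34 tested subunits of oxidative phosphorylation (33 positive, median 0.16), 36 cytosolic ribosomal proteins (median 0.08), 26 genes of fatty acid and triglyceride synthesis (median 0.14), 22 of cholesterol synthesis (median 0.23), 24 of autophagy (median -0.07) and 18 of MHC presentation (median 0.03). Of 35 tested interferon-stimulated genes 3 separated (8.57%, near the 6.81% of all genes tested): Rsad2 and Irf9, an antiviral enzyme and a factor of the interferon response, were lower, and Ifi27l2a was higher, at 382, 253 and 107 against 915, 1288, 1755 and 476 FPKM. In all, 138 of 1199 tested list members separated the groups (11.5%), and 714 separating genes stood in no list.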

How the data were processed

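RNA sequencing of mouse mammary gland was deposited as a table of FPKM per gene for involution day 2 (7 libraries) and a separate one for lactation day 7 (6 libraries). The submitters' processing notes name CASAVA, cutadapt and TopHat and mouse build mm9 for the deposited FPKM. The sources used here do not give their versions or the program, annotation and scaling behind the FPKM. Groups and mouse numbers come from the sample titles, and no mouse number stands in both groups at this stage. Tests were made within the involution table, and lactation levels are only set side by side.

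Each deposited FPKM column was rescaled by its median-of-ratios factor (0.980 to 1.02) and transformed to log2(rescaled FPKM + 1). Genes with 1 FPKM or more in at least 3 libraries were tested with limma 3.58.1 (lmFit, eBayes with trend) in R 4.3.3, knockout minus control, two-sided, with no covariates, as no batch is labelled, with Benjamini-Hochberg adjustment and a threshold of 0.05. The number of sequenced fragments is unknown; low FPKM rise in steps of 1 fragment, and depth relative to the mean of the table was estimated from the ratios of these steps (69.5% of 33942 pairs of low values lay on ratios of whole numbers within a tolerance of 0.02 on the log2 scale). No counting intervals can be given. Exact zeros entered as 0.

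The comparison, the 68 gene lists (53 of pathways, 15 of cell types) and the tests were chosen with earlier results of these data known, so lists are described by counts and medians, not tested. Named are Jak1, every gene past the threshold, the 15 widest gaps per direction among genes above 0 in all 7 libraries (without short RNA, Riken, Gm and LOC entries), in each list up to 4 separating members with the smallest p (or the 1 smallest where none separates), and a few receptors and markers. Genes named beyond this rule were chosen after their values were seen. Promoter sequences are from RefSeq (GRCm38.p6); 9316 of the 12509 tested genes matched by symbol. Alternatives were a pseudocount of 0.1, other filters and scalings, robust empirical Bayes, array weights, leaving out each library, genes listed at 0 in a whole group or short RNA entries, and, added after seeing the data, leaving out M44448 and M43196 together. A few genes of the lists are not reported here, although they remain in the counts and medians.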

Additional observations from a re-analysis of the deposited data

Results flagged for a closer look

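Of the 159 named genes, 17 had 1 of the 4 knockout libraries far from the other 3 (its gap to the nearest of the others, over the whole range, was above Dixon's 95% critical value for 4 samples). For independent groups of normal values, chance puts about 1 in 20 past that value. These genes share the same 4 libraries and their FPKM were not log-transformed, so the 17 cannot be set against that share. The libraries concerned were M43196, M44176 and M43767. Values are deposited FPKM.

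M43196, the shallowest library, with the most globin and neutrophil granule transcript, stood apart in 8 genes. It was the highest for Nfasc (0.4675, others 0.1456 to 0.1763), S100a16 (142.8, others 89.58 to 98.13), S100a8 (216.2, others 23.44 to 52.2) and the mitotic genes Cdca3 (8.362, others 3.687 to 4.164), Aurka (3.08, others 1.803 to 1.98) and Cdc20 (5.048, others 1.943 to 2.326). It also had the highest Mir6236 (601700, others 22330 to 73210) and the lowest Irak1 (13.27, others 16.67 to 17.08). The part of blood cells in these values was not tested.

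M44176, the library with the most skeletal muscle transcript, was the highest for Pip (390.1, others 15.89 to 44.8), Orm1 (218.6, others 123.5 to 134.1), Prlr (6.61, others 5.677 to 5.798) and Serpine2 (8.985, others 5.11 to 5.734), and the lowest for Zfp36 (16.84, others 23.26 to 23.78).

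M43767, which alone held Krt1 and Lor above 1 FPKM, was the highest for Ly6d (50.15, others 4.475 to 6.3) and S100a14 (40.89, others 4.061 to 6.583), and the lowest for Scnn1b (8.012, others 13.57 to 14.01) and Pdpn (3.172, others 4.911 to 5.105). In 15 of the 17 genes the 4 knockouts lay on 1 side of the 3 controls, the exceptions being S100a8 and Mir6236. Most named genes were chosen because they separate the groups, so this number follows largely from the choice.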

How the results depend on the processing

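Leaving out 1 library at a time, the number of genes past the threshold (2 higher and 7 lower with limma) ran from 2 to 3 higher and from 0 to 7 lower, and the number of separating genes (383 higher, 469 lower) from 507 to 1038 higher and from 634 to 986 lower. Fewer libraries make separation easier by construction. Only a and Trf passed without each library. Csn1s2a, Cdk8, Mir7036b and Mir1905 passed in every alternative that tested them. Without any 1 of the controls they missed the expression filter, so the low counts of lower calls there reflect in part genes not tested. Requiring 1 FPKM in every library gave 0 higher and 4 lower calls, because a, Trf, Nfasc and the genes listed at 0 were no longer tested; leaving out genes listed at 0 in a whole group gave 1 and 0, robust empirical Bayes gave 11 lower, and array weights gave 5 and 15. Scaling to the total outside milk proteins and short RNA gave 4 higher calls and 265 genes separating lower. Without both M44448 and M43196 there were 4 higher and 0 lower calls and 1247 and 1326 separating genes. Of the named genes, the sign turned for Il6st without M43914 (range with libraries left out -0.025 to 0.28), for Lifr without M43914 or M43767 (-0.13 and -0.043, highest 0.24) and for Mir6236 without M43768 or M43196 (-0.96 and -0.86, highest 0.96); the cause was not tested. Over named genes and alternatives, 2744 values kept their direction and side of the threshold, 25 crossed to pass it and 24 no longer passed. No paired analysis was possible because no mouse number stands in both groups. Fragment numbers are unknown, so no counting limit can be given for low genes.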

Other observations

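Genes of the circadian clock lay mostly lower in the knockouts: 17 of 21 tested had a negative log2 difference (51.8% of all genes had a positive one), and Hlf, Cry1 and Csnk1d separated the groups (14.3%, against 6.81% of all genes). The median of -0.19 ran from -0.48 without control M43914 to -0.08 without control M43768. Hlf, a factor of the PAR family whose level follows the clock, stood at 12.9, 14.3 and 10.5 FPKM in the controls, against 6.57, 9.34, 3.98 and 5.44 FPKM in the knockout glands, and Cry1, a repressor of the clock, at 3.25, 4.38 and 6.61 against 1.53, 2.67, 2.72 and 1.44 FPKM. The sources used here do not give the hour at which glands were taken.

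Among immediate early genes, Fos and Junb, partners in the AP-1 factor, lay lower in every knockout, at 27.4, 22.1 and 26.4 against 12.4, 16.8, 7.12 and 11.3 FPKM and at 56.7, 37.9 and 45.1 against 31.8, 26.5, 20.6 and 30.2 FPKM, whereas Dusp6 was slightly higher, at 8.203, 9.37 and 7.23 against 9.35, 10.5, 9.42 and 9.87 FPKM, apart only after rescaling. Of 12 tested genes of the interleukin 1 family, 33.3% separated, against 6.81% of all genes. The cytokine Il1b and the receptor chain Il1rap lay lower and the receptors Il1r1 and Il18r1 higher. For Il1b and Il1r1 the groups nearly met, with gaps of 0.017 and 0.056 on the log2 scale. Il18r1 was at 1.28, 4.61 and 3.85 against 9.35, 5.88, 8.45 and 4.58 FPKM, again apart only after rescaling. Ccl8, a chemokine for monocytes, was the only separating gene of 18 tested chemokines, at 37.7, 60.0 and 38.7 against 309.9, 207, 151 and 67.8 FPKM. Markers of macrophages did not part the groups apart from Mrc1 (summed levels 623 to 1048 FPKM in the controls and 509 to 1757 FPKM in the knockouts), and their part in Ccl8 was not tested. Chit1, a chitinase of macrophages, was among the 15 widest gaps upward, at 0.185, 0.399 and 0.498 against 3.14, 6.29, 1.45 and 3.07 FPKM. Of 36 listed claudins and junction genes 33 were tested and Cldn1, a tight junction protein, alone separated, at 1.296, 2.96 and 3.60 against 5.96, 8.12, 5.23 and 6.70 FPKM. The shares of separating chemokines (5.56%) and junction genes (3.03%) were below the 6.81% of all genes. None of these genes passed the adjusted threshold with limma.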
